A study of Caenorhabditis elegans with 12 samples.

Results

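The miRNA pathway genes described here are 9 of the 46904 gene identifiers counted in C. elegans, and they were chosen by name for their roles in making and using miRNAs. They are the Argonaute genes alg-1, alg-2 and alg-5, the GW182 family genes ain-1 and ain-2, the processing genes drsh-1, pash-1 and dcr-1, and the cofactor gene nhl-2. All 9 members were found in the counts and all 9 passed the filter on low counts. The fall of alg-1 on heat shock (HS) was part of how the set was described, so its test is a measurement of size and spread and not independent evidence of its direction.

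Total RNA of whole worms, depleted of ribosomal RNA, was sequenced in 12 libraries, with 3 biological replicates in each of 4 groups. Wild type (WT) worms were the N2 Bristol strain, and miR-85(n4117) worms carry a deletion of the gene of the miRNA miR-85. By the study's account this allele also partly disrupts the gene F49E12.8, so the strain comparisons here cannot tell these losses apart. Control worms of both strains were grown for 47 hrs at 20°C, to the last larval stage (L4) by the study's account. The HS worms of both strains grew for 44 hrs at 20°C and then spent 3 hrs at 35°C, so that both groups had the same total age and no group includes a recovery period. Each strain is a single line, and the deletion is present in all cells of the worm.

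miRNAs are cut from long transcripts in the nucleus by the Drosha enzyme DRSH-1 with its RNA-binding partner PASH-1, and the hairpin is cut again in the cytoplasm by Dicer, DCR-1. The mature strand is loaded into an Argonaute protein, which binds a GW182 protein (AIN-1 or AIN-2 in worms), and the complex lowers the translation and stability of target mRNAs. ALG-1 and ALG-2 are the broadly expressed miRNA Argonautes of C. elegans, and ALG-5 is known from the germ line.

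The labels were checked first. Counts on the miR-85 gene were few. They were 5, 5 and 0 in WT replicates 1 to 3 at 20°C and 9, 6 and 2 at 35°C, and were 0 in all 6 miR-85(n4117) libraries. F49E12.8, the gene that the same allele partly disrupts, had 78 to 220 counts in the WT libraries and 0 to 11 in the mutant libraries. The normalized count of hsp-70 was 69.9 to 1620 in the 20°C libraries and 117500 to 168500 in the 35°C libraries. In miR-85(n4117) replicates 2 and 3 at 20°C, hsp-70 (1620 and 1579) and the small heat shock gene hsp-16.2 (456 and 446) were above the other 4 control libraries, which had 69.9 to 320 and 9.02 to 45.1. Total counts were 23871531 to 38586076 a library, and counts on protein-coding genes were 18080627 to 29652439 apart from WT replicate 3 at 20°C, which had 9505142 and 65.5% ribosomal counts. The member with the fewest counts in that library was pash-1, with 121. A normalized count below is the count scaled to a common effective library size by the TMM method.

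At 35°C the replicate 2 libraries of both strains stood apart. The summed normalized counts of 4 adult or late markers (col-19, vit-2, vit-5 and vit-6) were 246300 and 157100 in these libraries and 9876 to 97790 in the other 35°C libraries. The sums of 4 molting markers (mlt-10, mlt-11, noah-1 and nas-37) were 2198 and 1690 in them and 5460 to 10680 in the others. The counts of genes that passed on HS are given with and without them. In RNA of whole worms, fewer cells of a type and less RNA per cell cannot be told apart.

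The Argonaute genes had the largest HS responses of the members, and not in the same direction. In WT, alg-1 was 3.12-fold lower and alg-2 was 2.48-fold lower at 35°C, while alg-5 was 2.10-fold higher. In miR-85(n4117) worms alg-2 was 2.31-fold lower and alg-5 was 2.19-fold higher at 35°C, and the fold for alg-1 was 1.65-fold lower without passing the test. A gene passed where edgeR's quasi-likelihood test, fitted over all 12 libraries, gave an adjusted p under 0.05 over all 16585 genes tested.

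**Figure D1:**
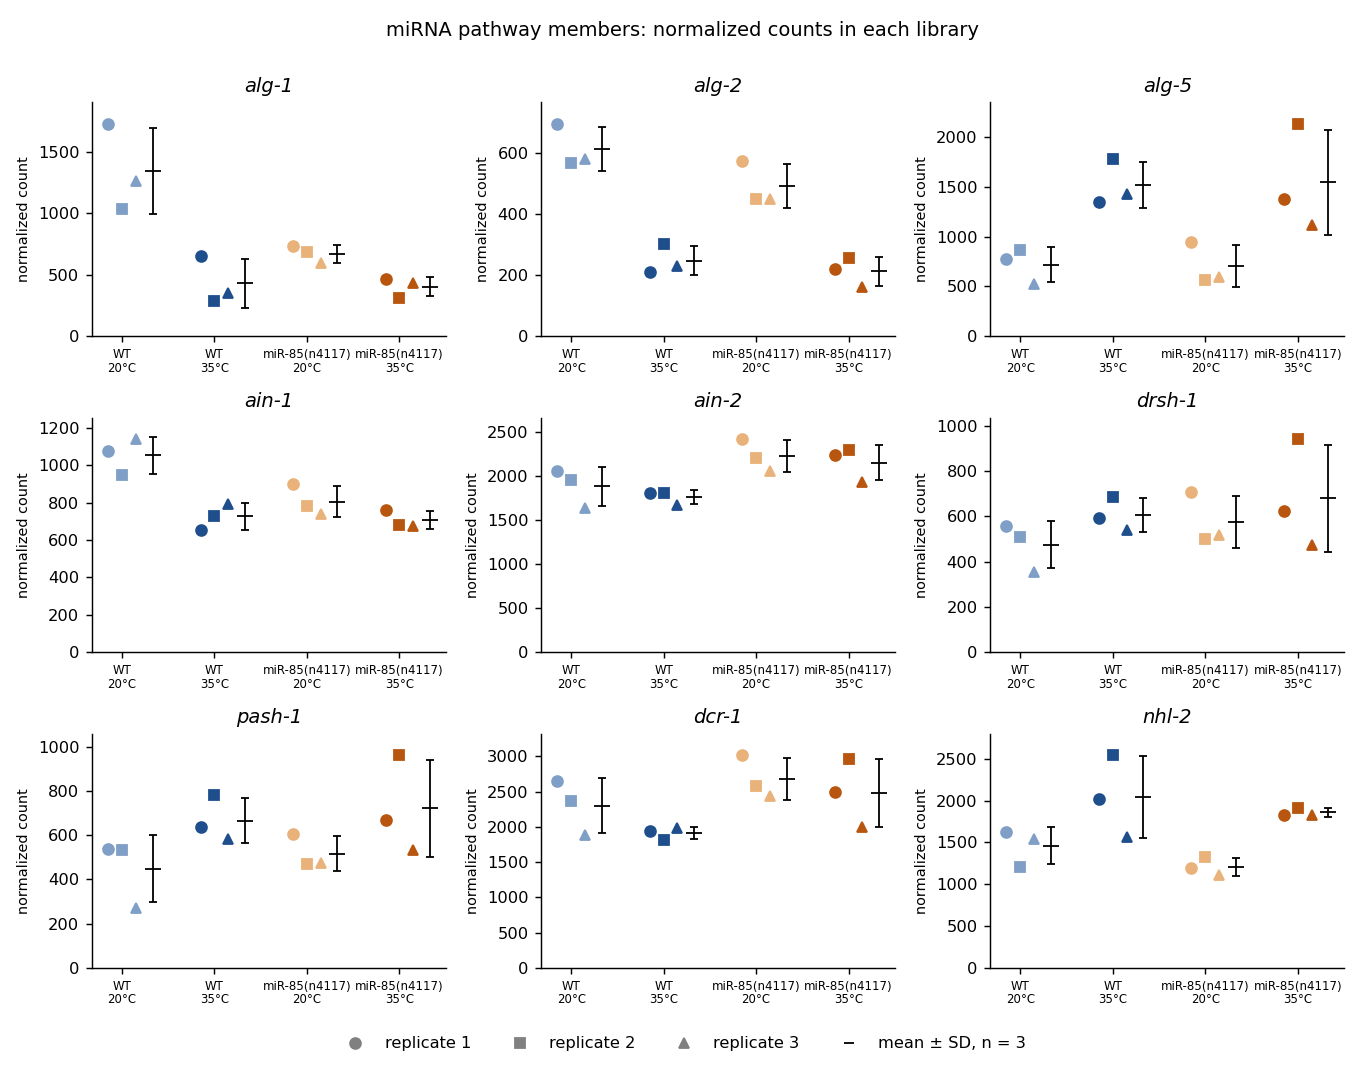
Normalized counts (vertical axes, starting at 0) of the 9 members in each of the 12 libraries, by strain and temperature. Symbols mark the replicate number, and the black bars give the mean and SD of 3 libraries. In both strains all 35°C libraries lie below the 20°C libraries for alg-1 and alg-2 and above them for alg-5.

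alg-1 lies on chromosome X (13949110 to 13956261, plus strand, WBcel235) and encodes a miRNA Argonaute needed for normal larval development. Its normalized counts were 1731, 1038 and 1268 in WT replicates 1 to 3 at 20°C and 658, 285 and 349 at 35°C. Every WT library at 35°C was below every WT library at 20°C, and replicate 1 was the highest at both temperatures. edgeR put the log2 fold change at -1.64 (SE 0.305, adjusted p = 0.00398). It ranged from -2.10 to -1.42 when each library was left out in turn, and the adjusted p stayed at or under 0.0185. In the mutant, alg-1 had 735, 682 and 594 at 20°C and 468, 315 and 433 at 35°C. These groups did not overlap either, but the log2 fold change of -0.73 (SE 0.30) did not pass (unadjusted p = 0.0339, adjusted p = 0.129 with edgeR). It passed without WT replicate 1 at 35°C (log2 fold change -0.76, adjusted p = 0.0391), a library outside this comparison that enters only through the shared fit.

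The levels of alg-1 at 35°C overlapped between the strains, at 285 to 658 in WT and 315 to 468 in the mutant. At 20°C they did not overlap, with 1038 to 1731 in WT and 594 to 735 in the mutant. The fold on HS in WT and the strain difference at 20°C both use the WT libraries at 20°C, so they are not separate measurements. The difference between the strains in the HS response of alg-1 was 0.92 on the log2 scale (SE 0.422, unadjusted p = 0.0528, adjusted p = 1.0 in edgeR's interaction test), and so was not shown.

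alg-2 encodes the closest relative of ALG-1 and lies on chromosome II (873212 to 879885, plus strand). It had 694, 565 and 577 in WT at 20°C and 211, 303 and 228 at 35°C. In the mutant it had 573, 449 and 448 at 20°C and 219, 256 and 161 at 35°C. The groups were apart in both strains, and the highest 35°C library (303) was below the lowest 20°C library (448) over both strains. Its log2 fold change on HS was -1.31 (SE 0.204, edgeR adjusted p = 0.00145) in WT and -1.21 (SE 0.204, adjusted p = 0.0025) in the mutant. Both calls held with each library left out in turn, with adjusted p-values up to 0.0084 and 0.0114.

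alg-5 lies on chromosome I (9989802 to 9993976, plus strand). It had 771, 861 and 528 in WT at 20°C and 1344, 1774 and 1432 at 35°C. In the mutant it had 951, 569 and 597 at 20°C and 1374, 2133 and 1121 at 35°C. Over both strains the lowest 35°C library (1121) was above the highest 20°C library (951). On the log2 scale the rise was 1.07 (SE 0.283, edgeR adjusted p = 0.0213) in WT and 1.13 (SE 0.283, adjusted p = 0.0213) in the mutant. The call in the mutant was lost without replicate 2 at 35°C (log2 fold change 0.82, adjusted p = 0.0732), the library with the highest value, and without replicate 2 or 3 at 20°C (0.0926 and 0.0904). In WT it was lost without replicate 2 at 35°C (0.0723) or without replicate 1 or 3 at 20°C (0.0544 and 0.0609).

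Ratios within a library do not depend on how libraries are scaled. alg-5 per alg-2 was 0.914 to 1.66 in the 6 libraries at 20°C and 5.86 to 8.34 in the 6 libraries at 35°C. alg-5 per alg-1 was 0.416 to 1.29 at 20°C and 2.04 to 6.76 at 35°C. Neither range overlapped between the temperatures. alg-1 per alg-2 did overlap, at 1.28 to 2.49 at 20°C and 0.943 to 3.11 at 35°C.

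To set the Argonaute genes on one scale, counts were divided by the length of their annotated exons. alg-5 then took 39.9% ± 7.80 (SD, n = 3) of the sum of the 3 genes in WT at 20°C and 79.6% ± 4.61 at 35°C. In the mutant its share was 50.4% ± 4.43 at 20°C and 80.8% ± 4.81 at 35°C. The share of alg-1 was 34.5% ± 6.29 and 10.8% ± 5.51 in WT at the lower and the higher temperature, and 22.8% ± 3.05 and 10.7% ± 4.24 in the mutant. The summed level of the 3 genes, in counts per kilobase of exon per 1000000 effective counts, was 20.5 ± 3.12 in WT at 20°C and 21.6 ± 2.29 at 35°C, so in WT the sum differed by less than its spread while its make-up changed. In the mutant the sum was 15.7 ± 3.32 and 21.4 ± 5.98.

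**Figure D2:**
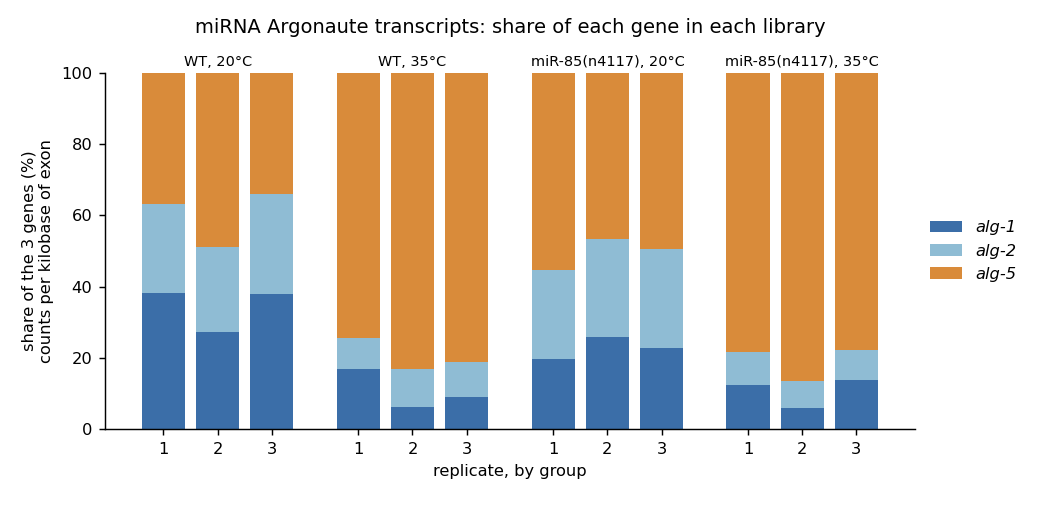
Share of alg-1, alg-2 and alg-5 (vertical axis, percent of their summed counts per kilobase of exon) in each library, grouped by strain and temperature. alg-5 holds 34.1% to 55.2% in the 20°C libraries and 74.4% to 86.3% in the 35°C libraries.

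Overlapping annotations share few exon bases with the Argonaute genes. A snoRNA gene shares 96 exon bases with alg-1 on the same strand, and 2 small RNA genes share 101 and 58 bases with alg-5. All had 0 counts, but a read that falls on more than 1 gene was not counted, so reads on the shared bases cannot be seen. The exon lengths, 6696 bases for alg-1, 4142 for alg-2 and 3105 for alg-5, are those of all annotated transcripts together, so a share would move if only a shorter transcript were present.

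Markers of the germ line and of the molt moved with some of these values inside the groups. alg-5 put the 3 libraries in the same order as the summed germ line markers (10 genes, among them glp-1, pgl-1 and glh-1) in 3 of the 4 groups. Among all 72 pairings of a member with a marker list, 5 had the same order in 3 groups and 0 in 4, and these included alg-2 with the germ line and with the adult or late markers, so the match was not particular to alg-5. The germ line sum itself was 23180 to 27300 in WT at 20°C and 20580 to 29750 at 35°C, and 20220 to 29380 and 20010 to 30730 in the mutant. None of the 10 germ line genes passed the test on HS in either strain, with list medians of 0.21 and 0.26 on the log2 scale against medians over all genes of 0.04 and 0.05. The germ line sums overlapped between the temperatures and alg-5 did not, but genes within the sum went opposite ways. In WT glp-1 had 1076 to 1614 at 20°C and 1762 to 2530 at 35°C, while glh-1 had 8485 to 10380 and 3850 to 6868. The part of the germ line in the levels of alg-5 was not tested.

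alg-1 put the libraries in the same order as the 4 molting markers in 3 of the 4 groups and in the opposite order in the mutant at 20°C. The molt sum was 10390 to 33360 in WT at 20°C and 2198 to 6665 at 35°C, and 10040 to 17460 and 1690 to 10680 in the mutant. One of the 4 molting genes passed the test in WT and 0 in the mutant. The 6 hypodermis markers summed to 99070 to 126600 in WT at 20°C and 15780 to 69480 at 35°C, and to 80160 to 112100 and 12860 to 92880 in the mutant. Like the molt sums, the hypodermis sums were lowest in the replicate 2 libraries at 35°C (15780 and 12860), so the lists were not separate readings. The 6 intestine markers summed to 123700 to 240200 in WT at 20°C and 65090 to 122800 at 35°C, with 3 genes lower and 1 higher by the test, and to 91470 to 110500 and 56760 to 80400 in the mutant, with 2 lower. The adult or late sum was 23010 to 27890 in WT at 20°C and 69640 to 246300 at 35°C, and 2429 to 29270 and 9876 to 157100 in the mutant, with 0 of its 4 genes passing in either strain. The molt, hypodermis and adult or late sums in WT and the intestine sums in both strains thus did not overlap between the temperatures. Neither did the pharynx sums in the mutant (11480 to 13770 at 20°C and 14430 to 17380 at 35°C). The intestine sums in WT nearly met, at 123700 and 122800. Of 6 body wall muscle genes, 0 passed in WT and 2 passed as higher in the mutant. Of 6 neuron genes, 1 passed as lower in WT and 2 in the mutant. None of these markers was at 0 in all libraries, and the part of developmental stage or of tissue make-up in the levels of the Argonaute genes was not tested. Without the replicate 2 libraries at 35°C, alg-1 in WT was still lower, by -1.42 on the log2 scale (edgeR adjusted p = 0.00897). The WT libraries left at 35°C had adult or late sums of 69640 and 97790 and molt sums of 6665 and 5460. Those sums were still outside the WT ranges at 20°C, so this fit does not separate stage from HS.

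**Figure D3:**
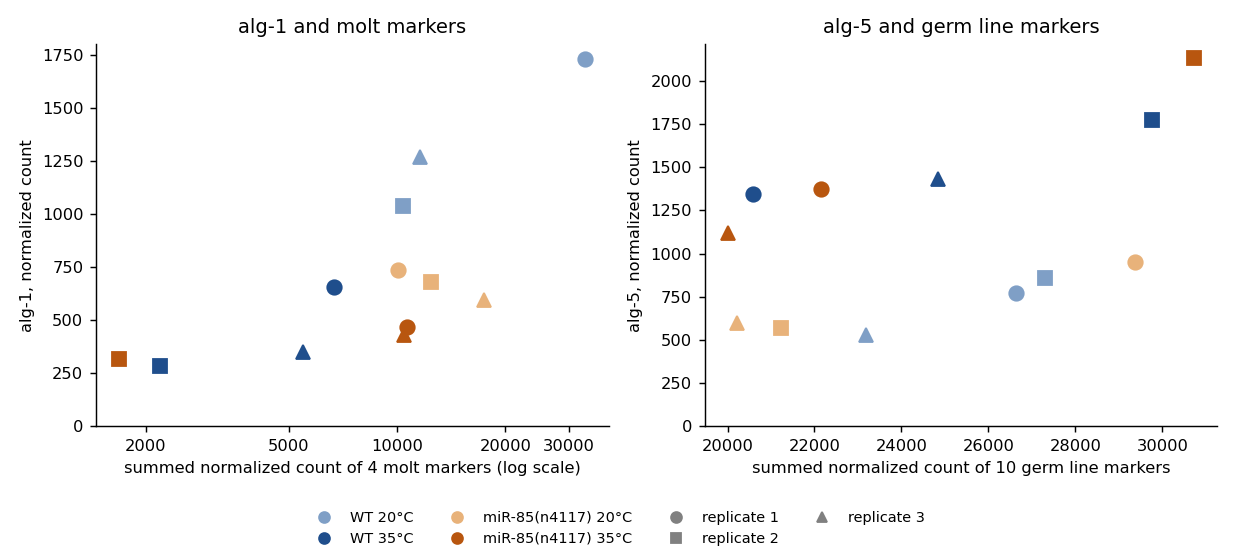
Left, normalized count of alg-1 against the summed normalized count of 4 molting markers (log axis). Right, normalized count of alg-5 against the sum of 10 germ line markers, whose axis does not start at 0. Each point is 1 of 12 libraries, with colour for the group and symbol for the replicate number. The replicate 2 libraries at 35°C have the lowest molt sums (2198 and 1690) and the highest germ line sums (29750 and 30730).

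The GW182 family genes encode the proteins through which the Argonautes reach the deadenylation machinery. ain-1 (chromosome X, 16613451 to 16616871, plus strand) fell in WT and its mutant groups overlapped. It had 1079, 946 and 1139 in WT at 20°C and 652, 731 and 796 at 35°C, with no overlap. The change on the log2 scale was -0.54 (SE 0.129, edgeR adjusted p = 0.0142). The call was lost when only the 6 WT libraries were fitted (adjusted p = 0.0507). In the mutant ain-1 had 899, 781 and 738 at 20°C and 761, 681 and 674 at 35°C. The change there was -0.19 (SE 0.129, adjusted p = 0.348). The difference between the strains in this response was 0.34 (SE 0.183, unadjusted p = 0.0859, adjusted p = 1.0), so it was not shown.

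ain-2 (chromosome I, 4653467 to 4660153, plus strand) had the highest level per kilobase of the members in all 4 groups. Its normalized counts were 1633 to 2060 in WT at 20°C and 1668 to 1812 at 35°C, and 2062 to 2416 and 1929 to 2292 in the mutant. The HS log2 fold changes were -0.10 (SE 0.130) in WT and -0.05 (SE 0.130) in the mutant, with edgeR adjusted p-values of 0.623 and 0.842. No change of ain-2 larger than the spread between replicates was seen on HS.

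The processing genes did not pass the test in either strain. drsh-1 (chromosome I, 9781324 to 9785724, minus strand) had 556, 511 and 356 in WT at 20°C and 593, 685 and 540 at 35°C, which overlapped. In the mutant it had 708, 502 and 516 at 20°C and 623, 940 and 475 at 35°C. The log2 fold changes were 0.35 (SE 0.255, edgeR adjusted p = 0.349) and 0.24 (SE 0.254, adjusted p = 0.569). The second turned to -0.07 without replicate 2 of the mutant at 35°C.

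pash-1 (chromosome I, 10598673 to 10606621, plus strand), the gene of DRSH-1's partner, had 537, 532 and 273 in WT at 20°C and 636, 781 and 582 at 35°C. These groups did not overlap, but the log2 fold change of 0.57 (SE 0.276) did not pass, with an edgeR adjusted p of 0.161. The 20°C library with 273 was WT replicate 3, the library with the fewest protein-coding counts. In the mutant pash-1 had 607, 468 and 474 at 20°C and 669, 961 and 534 at 35°C, and the log2 change was 0.48 (SE 0.274, adjusted p = 0.267). drsh-1 and pash-1 put the 3 libraries in the same order in all 4 groups, the only pair to do so when all pairs of members were compared. Close variation inside the groups was not particular to this pair. The Pearson r within groups was 0.951 for drsh-1 with alg-5 and 0.945 for drsh-1 with pash-1. It was 0.913 for pash-1 with alg-5 and 0.904 for pash-1 with ain-2. The ratio of pash-1 to drsh-1 was 0.766 to 1.04 at 20°C and 1.02 to 1.14 at 35°C.

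dcr-1 (chromosome III, 8071967 to 8080281, minus strand) encodes the Dicer of both the miRNA and the siRNA pathways. It had 2657, 2365 and 1883 in WT at 20°C and 1942, 1812 and 1981 at 35°C, and 3017, 2586 and 2434 and then 2494, 2963 and 1993 in the mutant. The temperatures overlapped in both strains. The log2 fold changes were -0.27 (SE 0.174, edgeR adjusted p = 0.289) and -0.11 (SE 0.173, adjusted p = 0.722). The ratio of drsh-1 to dcr-1, the genes of the nuclear and the cytoplasmic enzyme, was 0.189 to 0.235 at 20°C and 0.239 to 0.378 at 35°C. These ranges did not overlap but nearly met.

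nhl-2 (chromosome III, 4893658 to 4899085, minus strand) encodes a TRIM-NHL protein that acts with the miRNA-induced silencing complex. It had 1199, 1321 and 1107 in the mutant at 20°C and 1828, 1917 and 1831 at 35°C, with no overlap. This rise was 0.62 on the log2 scale (SE 0.178, edgeR adjusted p = 0.0382). In WT nhl-2 had 1627, 1212 and 1545 at 20°C and 2015, 2542 and 1569 at 35°C, which overlapped, and the log2 change of 0.48 did not pass (SE 0.178, adjusted p = 0.0735). The call in the mutant was lost in 7 of the 12 fits that left out 1 library, each of the 6 mutant libraries and WT replicate 1 at 35°C, with adjusted p-values of 0.0524 to 0.141.

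Over the whole set, 4 of the 9 members passed on HS in WT, 3 lower (alg-1, alg-2 and ain-1) and 1 higher (alg-5). Of all genes tested, 9.29% passed as lower and 12.9% as higher. The fall of alg-1 was part of how the set was described, so the WT counts that include alg-1 are not independent of that choice. In the mutant 3 of the 9 members passed, 1 lower (alg-2) and 2 higher (alg-5 and nhl-2), against 5.88% and 9.35% of all genes. The median log2 fold change of the 9 members was -0.10 in WT and -0.05 in the mutant, beside medians over all genes of 0.04 and 0.05, so the set as a whole did not lie to one side. With the added limits of the study's rule (protein-coding, a mean normalized count over 10 and a log2 fold change of at least 1), alg-1, alg-2 and alg-5 remained in WT and alg-2 and alg-5 in the mutant, where 10.2% and 6.81% of all genes met the rule. Groups without overlap were found for 5 members in WT and 4 in the mutant, where 40.3% and 38.5% of all genes had none. Without the replicate 2 libraries at 35°C the same 4 members passed in WT, and alg-2 and nhl-2 passed in the mutant. Of all 16733 genes tested in that fit, 1961 passed as higher and 1394 as lower in WT, and 1451 and 959 in the mutant. The count in the mutant was 1 (alg-2) without replicate 2 or 3 at 20°C or without replicate 2 at 35°C.

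**Figure D4:**
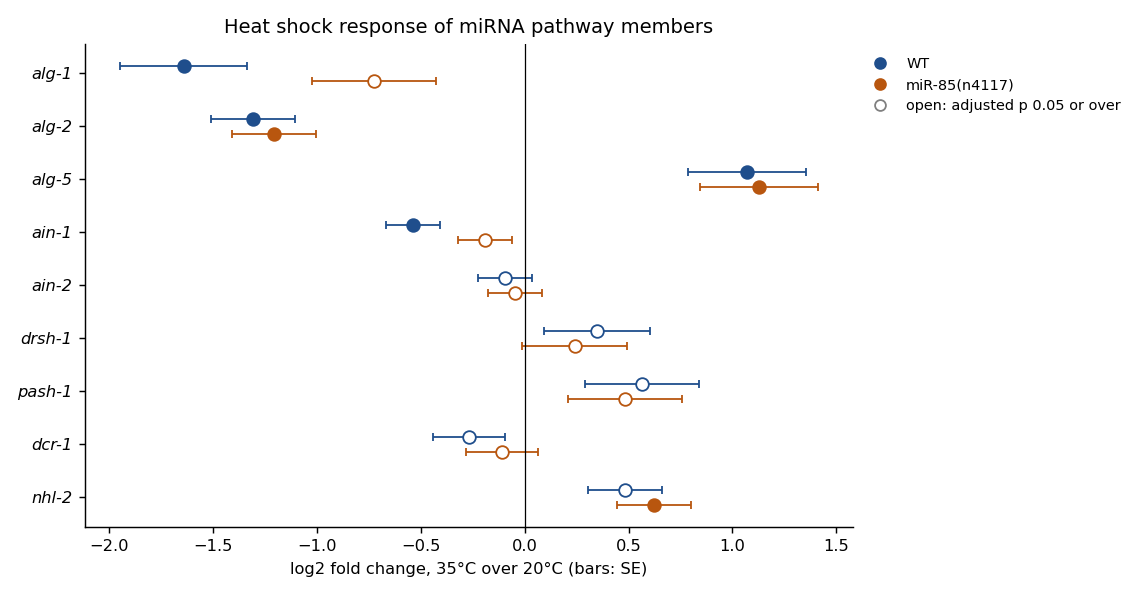
Log2 fold change of each member on HS (horizontal axis, 35°C over 20°C) in WT and miR-85(n4117), with bars for the SE of edgeR's fit of 12 libraries. Filled points have an adjusted p under 0.05. alg-2 and alg-5 are filled in both strains, and alg-1 is at -1.64 in WT and -0.73 in the mutant.

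One choice of scale moved several members. When libraries were scaled to ama-1, the RNA polymerase II gene that served the study as the reference in its RT-qPCR, the median over all genes in WT moved from 0.04 to 0.40 and the counts of genes passing changed from 2143 higher and 1541 lower to 3788 higher and 274 lower. On this scale alg-1 (log2 fold change -1.19, adjusted p = 0.0444) and alg-2 (-0.97) still passed as lower in WT, ain-1 did not pass (-0.20, adjusted p = 0.466), and drsh-1 (0.72), pash-1 (0.94) and nhl-2 (0.83) passed as higher beside alg-5. The normalized count of ama-1 was 6086 ± 806 (SD, n = 3) in WT at 20°C and 4813 ± 833 at 35°C.

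The next comparison asked how the mutant differs from WT at one temperature, and each test used 6 libraries. At 20°C 0 of the 9 members passed with edgeR, where 0.0521% of 15349 genes did. An unadjusted p under 0.05 was found for 2 members (alg-1 and ain-1), against 9.68% of all genes. alg-1 was 2.01-fold lower in miR-85(n4117), with a log2 difference of -1.005 (SE 0.198, unadjusted p = 0.00134, adjusted p = 0.258). DESeq2, the study's tool, gave an adjusted p of 0.00337 for it and passed 1.52% of 16367 genes. With DESeq2 alg-1 also met the added limits of the study's rule. In edgeR without the filter on low counts its adjusted p was 0.00481, so its call depended on the method. The adjusted p-values over all other settings and left-out libraries reached 0.834. All mutant libraries ran on lane 3, while WT replicates 2 and 3 ran on lane 8. With the lane as a covariate the difference was -1.36. That fit compared the mutant with WT replicate 1 alone, the only WT library on lane 3 and the highest for alg-1. Of the 8 marker lists, intestine and neurons had sums at 20°C that did not overlap between the strains (123700 to 240200 in WT and 91470 to 110500 in the mutant for intestine, 3786 to 4266 and 4547 to 4646 for neurons). The adult or late sums were 23010 to 27890 in WT and 29270, 5699 and 2429 in mutant replicates 1 to 3, and the molt sums overlapped (10390 to 33360 in WT and 10040 to 17460 in the mutant). The part of stage or tissue make-up in this difference was not tested.

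ain-1 was also lower in the mutant at 20°C, at 738 to 899 against 946 to 1139 in WT, with a log2 difference of -0.39 (SE 0.128, edgeR adjusted p = 0.425). ain-2 was higher in all 3 mutant libraries than in any WT library, by 0.24 (SE 0.136, adjusted p = 0.608), although its lowest mutant value (2062) and its highest WT value (2060) nearly met. Groups without overlap were found for 3 of the 9 members (alg-1, ain-1 and ain-2) and for 17.4% of all genes. alg-2 overlapped between the strains, with a log2 difference of -0.32 (SE 0.146, adjusted p = 0.533). Scaled to ama-1, which moved the median over all genes to 0.34, the differences at 20°C were -0.67 for alg-1, -0.08 for ain-1, 0.57 for ain-2 and -0.01 for alg-2, and none passed.

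At 35°C 0 of the 9 members passed with edgeR, where 0.019% of 15803 genes did, or with DESeq2, where 0.0666% of 19529 genes did. At an unadjusted edgeR p under 0.05 there were 0 members, against 2.38% of all genes. alg-1 differed by -0.09 between the strains (SE 0.342, adjusted p = 0.997), and its sign turned without WT replicate 1 (0.36) or mutant replicate 2 (0.07). With the lane as a covariate the difference was -0.70. That fit compared the mutant with WT replicate 1 alone, the only WT library at 35°C on the lane of the mutant libraries. ain-2 (0.29, SE 0.142) and dcr-1 (0.38, SE 0.181) were higher in every mutant library than in any WT library without passing, with an adjusted p of 0.995 for each. Groups without overlap at 35°C were found for 7.0% of all genes.

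In the test of whether the strains differ in their HS response, 0 of the 9 members passed with edgeR or DESeq2. Of all genes, 0.0% passed with edgeR and 0.00286% with DESeq2. At an unadjusted p under 0.05 edgeR had 0 members and 2.27% of all genes, and DESeq2 had 1 member, alg-1, and 1.23% of all genes. The shares of the tools are not alike, since edgeR tested 16585 genes and DESeq2, run without the filter on low counts, tested 34992. The differences in response ranged from -0.11 for drsh-1 to 0.92 for alg-1.

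Levels can be compared between genes only per length. In counts per kilobase of exon per 1000000 effective counts, ain-2 was the highest member in WT at 20°C with 21.1 ± 2.49 (SD, n = 3), followed by ain-1 with 14.3 ± 1.34 and dcr-1 with 13.8 ± 2.34, which overlapped each other. From there down to drsh-1, the lowest with 4.90 ± 1.08, every neighbour in the order overlapped the next. In WT at 35°C, ain-2 (19.7 ± 0.901), alg-5 (17.2 ± 2.58), nhl-2 (15.2 ± 3.63) and dcr-1 (11.4 ± 0.530) each overlapped the next. alg-1 (2.26 ± 1.05) and alg-2 (2.10 ± 0.414) overlapped each other at the bottom and lay below all other members in every library.

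alg-5 was at place 5 of the order at 20°C and at place 2 at 35°C in both strains. In miR-85(n4117) at 20°C, alg-1 was the lowest member with 3.53 ± 0.376 and overlapped alg-2 at 4.17 ± 0.612. At 35°C the mutant order had ain-2 (24.1 ± 2.19) and alg-5 (17.5 ± 5.97) on top, which overlapped, and alg-1 (2.13 ± 0.421) and alg-2 (1.80 ± 0.404) at the bottom.

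The other genes of the pathway were counted from lists of its partners, 48 of whose 51 symbols matched a gene, and all 48 were tested. On HS in WT 3 passed as higher and 3 as lower, where 22.2% of all genes passed in either direction. In the mutant 3 passed as higher and 1 as lower, where 15.2% of all genes passed. The median log2 fold change of the 48 genes was 0.01 in WT and 0.05 in the mutant. In the strain comparisons and in the test of the difference in response, 0 of the 48 passed with edgeR. The count in WT was 3 without WT replicate 1 or 2 at 20°C or replicate 2 at 35°C, and the count in the mutant was 2 without any one of its libraries other than replicate 1 at 35°C.

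None of the 7 genes of DCR-1 partners (such as rde-4 and drh-3) passed in either strain, and neither did any of the 4 other TRIM-NHL genes. Among 12 genes of deadenylation and poly(A) binding, 1 was higher in both strains (ntl-4, of the CCR4-NOT complex) and 1 was lower in WT (pab-2, a poly(A)-binding protein). Among 11 genes of translational repression and decapping, 1 was higher in both strains (dcap-2, the decapping enzyme). These genes and ebax-1, an adaptor for the turnover of miRNA-bound Argonautes, fell outside the rule for named genes and are named after their values were seen. ebax-1 was lower in WT, where it was the only one of 8 genes of miRNA turnover and uridylation to pass as lower. Without the replicate 2 libraries at 35°C, 5 of the 48 genes passed in WT and 4 in the mutant. Of all 16733 genes tested in that fit, 1961 passed as higher and 1394 as lower in WT, and 1451 and 959 in the mutant. ccf-1, a deadenylase gene, then passed in both strains, while pab-2 and ntl-4 did not pass in WT and dcap-2 did not pass in the mutant. With 1 library left out, dcap-2 in the mutant lost its call in 11 of 12 fits, and in WT the call was lost in 7 fits for pab-2, 5 for ntl-4 and 2 each for dcap-2 and ebax-1.

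pup-3, of the poly(U) polymerase family, was low at 20°C and higher at 35°C. Its normalized counts were 4.65, 9.47 and 15.8 in WT at 20°C and 78.8, 83.7 and 73.6 at 35°C, and 15.02, 14.4 and 15.4 and then 48.2, 83.6 and 50.8 in the mutant. The HS response was 3.09 on the log2 scale (SE 0.379, edgeR adjusted p = 0.000319) in WT and 2.02 (SE 0.343, adjusted p = 0.00258) in the mutant. The groups did not overlap in either strain.

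tsn-1, the Tudor staphylococcal nuclease found with the silencing complex, fell. It had 16540, 14260 and 10290 in WT at 20°C and 8236, 5432 and 6530 at 35°C, and 9644, 9544 and 8489 and then 5950, 5254 and 3922 in the mutant. Its HS response was -1.02 on the log2 scale (SE 0.224, edgeR adjusted p = 0.00878) in WT and -0.87 (SE 0.224, adjusted p = 0.0235) in the mutant. Scaled to ama-1 it did not pass in either strain (adjusted p = 0.132 and 0.120), and the call in the mutant was lost without any one mutant library other than replicate 1 at 35°C, with adjusted p-values up to 0.0751.

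**Figure D5:**
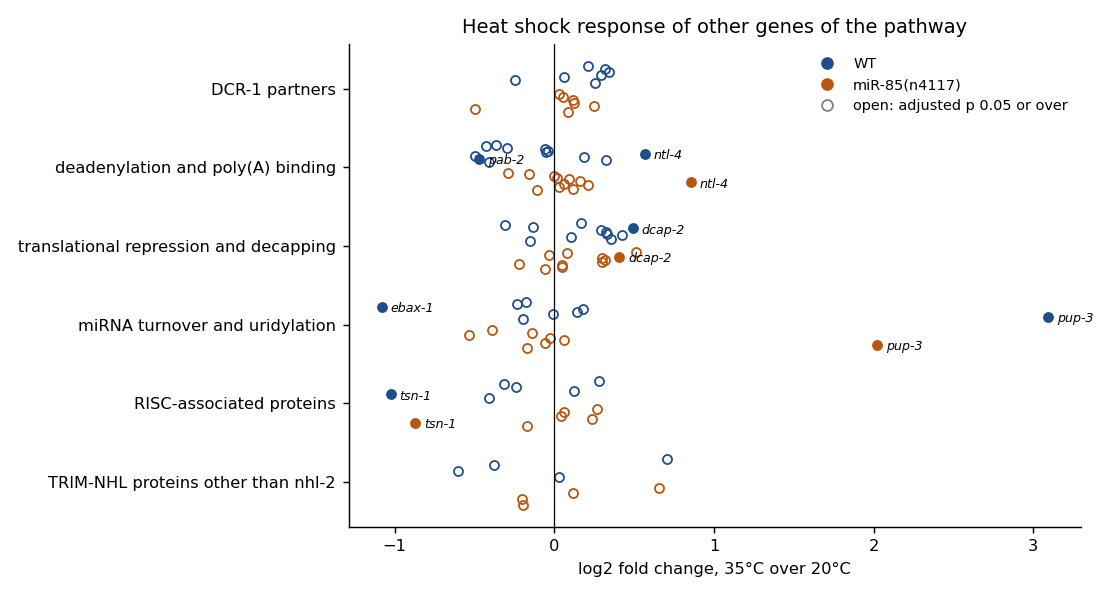
Log2 fold change on HS (horizontal axis, 35°C over 20°C) of 48 other genes of the miRNA pathway, by list, in WT and miR-85(n4117). Each point is a gene, filled and named where the adjusted p was under 0.05. 42 of 48 points are open in WT and 44 of 48 in the mutant.

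The protein-coding genes whose levels over the 12 libraries were most like those of alg-1 were unc-43, unc-52, gbf-1, pde-4 and goa-1, with a likeness (Pearson r of log2 CPM, a description across 12 libraries that fall into 4 groups) of 0.96 to 0.98. unc-43 encodes the calcium and calmodulin-dependent kinase CaMKII, unc-52 encodes the basement membrane protein perlecan and goa-1 encodes a G protein alpha subunit of neurons and muscle. unc-43 had 2283 ± 287 (SD, n = 3) and 1218 ± 240 in WT at 20°C and 35°C, and 1752 ± 129 and 1326 ± 124 in the mutant. It shared with alg-1 the order of the group means at 20°C, with WT above the mutant. Since these genes were picked for this pattern, no test of them is given.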

How the data were processed

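Total RNA was depleted of ribosomal RNA, made into stranded TruSeq libraries and sequenced as single reads. The authors aligned reads with STAR to the WBcel235 (ce11) genome and counted them with featureCounts 1.6.5, reverse strand setting 2, and the deposited files hold whole-number read counts for 46904 genes, not normalized. The file headers name Ensembl release 100, while the paper's methods name another release. Reads on more than 1 place or gene were not counted. Gene names, positions and exon lengths come from Ensembl 115, which held 46817 of the identifiers.

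Groups follow the labels. The members, lists and tests were chosen with earlier results of these data known. edgeR 4.0.16 (R 4.3.3) was used with filterByExpr, TMM normalization, robust quasi-likelihood tests and Benjamini-Hochberg adjustment over all genes tested. HS and interaction tests used 12 libraries, and strain tests 6. Each SE was taken as the size of the log2 fold change over the root of the test's F. The study used DESeq2, run here (1.42.0) as an alternative. Named genes were the members, pathway genes that passed in both strains and changed at least 1 on the log2 scale in WT, the 5 genes most like alg-1, and label checks. The tests were checked on simulated data whose planted changes were larger than those of the members and whose genes all had the same spread.

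Same-numbered libraries deviated together between temperatures in WT (correlation 0.31, 0.12 and 0.36 for replicates 1 to 3 across genes) and between strains at 35°C (0.49, 0.56 and 0.34), but not between temperatures in the mutant (-0.20, -0.34 and 0.41) or between strains at 20°C (0.10, -0.19 and 0.04). Numbers come from the titles. By the headers, WT replicates 2 and 3 of both temperatures ran on lane 8 and the other 8 libraries on lane 3.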

Additional observations from a re-analysis of the deposited data

How the results depend on the processing

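The alternatives were DESeq2, RLE normalization, dropping the filter, a minimum of 10 counts in all libraries, fits of 6 libraries for HS and of 12 for the strains, a replicate block, the lane as a covariate, scaling to ama-1, protein-coding genes only in the normalization, and leaving out each library in turn. Leaving out both replicate 2 libraries at 35°C was chosen after seeing the data. The interaction needs all 12 libraries and has no fit of 6. In WT alg-1 and alg-2 passed on HS under every one of these settings, and the count of members passing was 3 to 6, and 3 to 5 with 1 library left out. In the mutant it was 2 to 4, and 1 to 3 with 1 library left out. At 20°C, 1 member (alg-1) passed with DESeq2 and without the filter. Scaled to ama-1, 16 other pathway genes passed in WT and 2 in the mutant, all as higher. On that scale 3788 of all 16585 genes passed as higher and 274 as lower in WT, and 1494 and 240 in the mutant. In WT 3 other pathway genes passed with no filter, where 1908 of 35002 genes were higher and 1336 lower. In the fit of 6 WT libraries 2 passed, where 1415 of 15605 genes were higher and 1012 lower. With 1 library left out, 3 to 6 passed in WT and 2 to 4 in the mutant.

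The replicate block changed no member's call in WT on HS or between strains. In the mutant, where the numbers did not pair the libraries, alg-1 passed with the replicate block (log2 fold change -0.74, adjusted p = 0.0381) and nhl-2 did not (0.0942). alg-1 in the mutant also passed with the lane as a covariate (-0.73, adjusted p = 0.0245). All mutant libraries shared a lane, so its fold change did not move and only the fitted spread did. With 1 library left out the fold change of alg-1 in the mutant ranged from -0.84 to -0.58. Scaled to ama-1, the log2 fold change turned to 0.27 for ain-2 and 0.11 for dcr-1 in WT, and to 0.0855 for ain-2 and 0.0126 for dcr-1 in the mutant. With 1 library left out, the mutant values ranged from -0.11 to 0.0201 for ain-2, -0.26 to 0.0225 for dcr-1 and -0.0690 to 0.44 for drsh-1, which was -0.0673 without both replicate 2 libraries at 35°C, and the strain difference of alg-1 at 35°C from -0.31 to 0.36. With the lane as a covariate the strain difference of alg-1 was -1.36 at 20°C and -0.70 at 35°C, and neither passed. Only WT replicate 1 shared the lane of the mutant libraries, so each of these differences rests on 1 WT library. alg-5 in the mutant did not pass without both replicate 2 libraries at 35°C (0.82, adjusted p = 0.0606) or in the fit of 6 libraries (1.12, adjusted p = 0.0615). The causes were not tested. With 3 libraries a group, an exact permutation test of a single value cannot go below 0.1.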
